A study of Mus musculus with 4 samples.

Results

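The 10 genes described here are keratins, chosen by symbol from the 52125 gene rows of an RNA-seq table of mouse stomach corpus. They were Krt7, Krt8, Krt18, Krt19 and Krt20, which simple glandular epithelium makes, and Krt4, Krt5, Krt13, Krt14 and Krt17, which stratified squamous epithelium makes. Of the 10, 9 had enough reads to be tested and Krt4 did not. The table holds 4 libraries, each from 1 wild-type C57BL/6 mouse aged 6 to 8 weeks, and all are from the 48 hr time point. The 2 vehicle mice are the controls, although other label texts call them untreated, so whether they were injected is not settled by the labels. The 2 HDT mice received 1 intraperitoneal dose of 5 mg per 20 g of body weight, meant to damage the stomach. HDT is the common abbreviation of high-dose tamoxifen, and the labels give only the abbreviation. No transgene or allele is named for either group, and the whole corpus was extracted, so every value is a mixture over cell types in which fewer cells of a type and less RNA per cell cannot be told apart.

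Keratins are the intermediate filament proteins of epithelial cells. A filament is built from pairs of 1 type I keratin and 1 type II keratin, so a cell always needs a member of each family, and a keratin without a partner is degraded. In glandular stomach the main pair is Krt8, type II, with Krt18 or Krt19, type I. Krt20 is a type I keratin of surface mucous cells, and Krt7 is a type II keratin of ducts, of mesothelium and of several injured or metaplastic glandular epithelia. Krt5 and Krt14 form the filaments of basal squamous cells, Krt4 and Krt13 those of the upper layers of non-cornified squamous epithelium such as the forestomach, and Krt17 is a type I keratin induced in stressed epidermis. The members hold 6 type I and 4 type II genes. By GENCODE M21 on GRCm38, 5 of them lie on chromosome 11 and 5 on chromosome 15.

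Krt7 was the only listed keratin that changed by the test, and it rose. Its level was 10.2 CPM in each vehicle library, and 30.5 and 35.9 CPM in HDT replicates 1 and 2, with CPM meaning recovered counts scaled to the TMM effective library size. Krt8, Krt18 and Krt19, the abundant keratins, had levels that overlapped between the groups. Krt20 read 149 and 139 CPM for vehicle against 78.3 and 116 CPM for HDT, which did not pass the test. All 5 squamous keratins were at trace levels in every library, at most 1.33 CPM. The TMM method sets library sizes so that most genes centre on no change. Of the 9 tested keratins 1 was called higher and 0 lower at an adjusted p under 0.05 (limma, Benjamini-Hochberg), beside 18.4% of all 18285 tested genes called higher, 19.3% called lower and 37.7% called in either direction. At an unadjusted p under 0.05, 2 keratins were higher (Krt7 and Krt13) and 0 lower, beside 23.1% and 23.7% of all tested genes. edgeR called 1 keratin lower (Krt20), beside 18.8% of all tested genes. In 5 of the 9 the groups did not overlap, 3 of them higher and 2 lower in HDT, beside 70.8% of all tested genes.

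**Figure D1:**
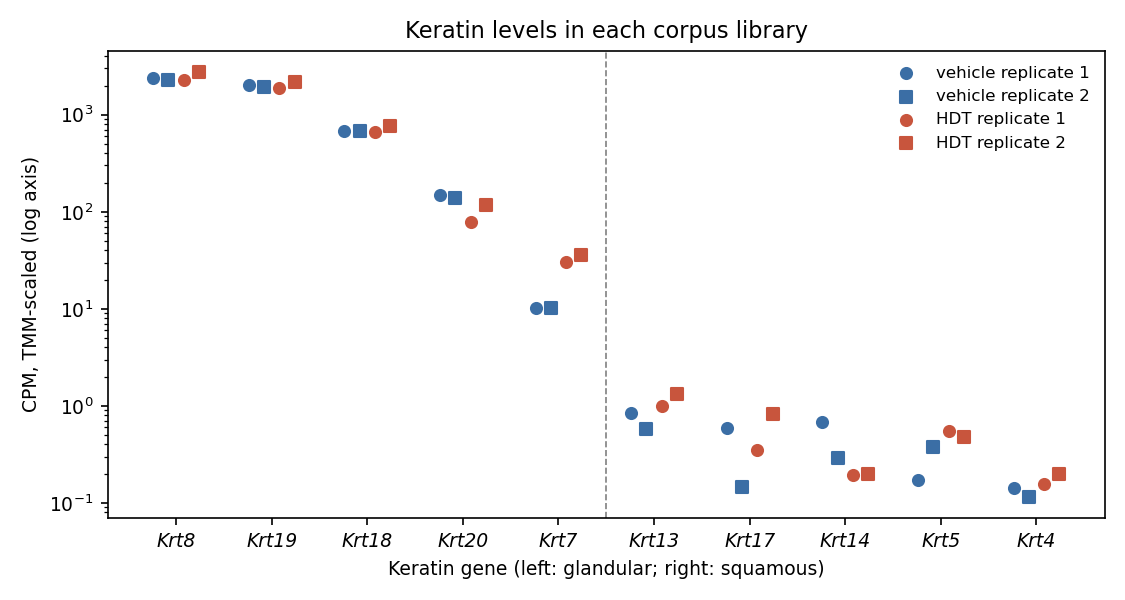
Levels of the 10 keratins in each of the 4 libraries, as TMM-scaled CPM on a log axis, with 1 point per mouse (blue vehicle, red HDT; circle replicate 1, square replicate 2) and the dashed line between glandular and squamous genes. The glandular keratins span 10.2 to 2759 CPM and the squamous ones stay at or below 1.33 CPM, and Krt7 shows the widest gap between groups among the glandular genes.

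To show what lies before the start of the glandular genes, the bases upstream of the RefSeq start are given for Krt7, which rose, for Krt20, and for the neighbouring genes Krt8 and Krt18, whose levels stayed in step (RefSeq, GRCm38.p6, 5′ to 3′ on the gene's strand). Capitals mark exact motif matches. The GC box was searched as GGGCGG on both strands. The TATA box was searched as TATAAA on the gene's strand only. The windows are chr15:101412153-101412401 on the plus strand for Krt7, chr11:99438154-99438403 on the minus strand for Krt20, chr15:102004483-102004592 on the minus strand for Krt8 and chr15:102027966-102028179 on the plus strand for Krt18. Each run was stopped before the first base of an annotated UTR. This left 249 bases for Krt7, 250 for Krt20, 110 for Krt8 and 214 for Krt18. In the runs shorter than 250 bases, those next to the RefSeq start are therefore not shown. Motifs were searched over all 250 bases. The Krt7 window lies inside the span of the GENCODE gene, some of whose transcripts start farther upstream, and part of it is an exon of one of those.
Krt7: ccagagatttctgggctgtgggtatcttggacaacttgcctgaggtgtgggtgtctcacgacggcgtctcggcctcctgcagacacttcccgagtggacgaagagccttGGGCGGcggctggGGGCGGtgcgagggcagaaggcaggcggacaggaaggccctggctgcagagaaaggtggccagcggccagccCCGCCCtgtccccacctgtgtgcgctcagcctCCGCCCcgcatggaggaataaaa
Krt20: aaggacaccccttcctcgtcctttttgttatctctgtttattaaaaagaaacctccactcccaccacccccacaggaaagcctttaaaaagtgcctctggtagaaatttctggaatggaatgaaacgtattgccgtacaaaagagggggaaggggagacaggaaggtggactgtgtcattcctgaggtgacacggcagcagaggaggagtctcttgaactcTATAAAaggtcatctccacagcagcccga
Krt8: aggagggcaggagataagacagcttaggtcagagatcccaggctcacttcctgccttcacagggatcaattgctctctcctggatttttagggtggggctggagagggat
Krt18: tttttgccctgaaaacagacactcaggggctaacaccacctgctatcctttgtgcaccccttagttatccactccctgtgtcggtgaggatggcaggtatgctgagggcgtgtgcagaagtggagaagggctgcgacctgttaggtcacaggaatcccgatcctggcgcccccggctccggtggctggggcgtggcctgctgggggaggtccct
The 250 bases before the Krt7 start held 4 GC boxes and were 66% G or C, where the median of 32851 RefSeq promoters was 52.4%. The Krt20 window held a TATA box that began 29 bases before the start and was 48% G or C. The 250 bases of Krt8 and Krt18 held neither motif. Of all promoters 32.7% held a GC box and 7.59% a TATA box in a window of this length. AP-1 motifs (TGANTCA, both strands) were found in the Krt13 promoters and in no other member's, against 6.75% of all promoters. The RefSeq table held 7 of the 10 members, without Krt4, Krt17 and Krt19. These matches describe letters only.

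Krt8 and Krt18 encode the partners of the main simple-epithelial filament and lie head to head on chromosome 15, 23.7 kb apart (Krt8 at chr15:101996698-102004482, Krt18 at chr15:102028180-102032027). Krt18 is thus a type I gene at the edge of the type II cluster. Krt8 stood at 2411 and 2264 CPM in the vehicle libraries, and the HDT libraries read 2285 and 2759 CPM. The lower HDT value fell between the vehicle values and the higher lay above both. The log2 fold change was 0.10 (SE 0.10, 95% interval −0.14 to 0.35, limma adjusted p = 0.472). Krt18 read 679 and 676 CPM for vehicle, then 662 and 771 CPM for HDT, so that the vehicle values lay between the HDT values. Its log2 fold change was 0.08 (SE 0.08, 95% interval −0.12 to 0.27, limma adjusted p = 0.513). In both genes HDT replicate 2 was the highest library and HDT replicate 1 lay close to vehicle. Without HDT replicate 1 both were called higher, Krt8 at 0.246 (limma adjusted p = 0.0278) and Krt18 at 0.192 (0.0365), and without HDT replicate 2 the changes were −0.016 and −0.017.

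Krt19 is a small type I keratin that pairs with Krt8 or Krt7 (chr11:100140810-100148665). It read 2031 and 1941 CPM for vehicle, then 1882 and 2185 CPM for HDT, and the vehicle values again lay between the HDT values. The log2 fold change was 0.03 (SE 0.09, 95% interval −0.18 to 0.25, limma adjusted p = 0.824). The intervals of Krt8, Krt18 and Krt19 all lie within 0.35 of 0 at TMM scaling.

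These 3 calls depended on how libraries are scaled. At the scaling of the deposited values the tested genes had a median log2 fold change of 0.526, against −0.00147 with TMM, and 62.8% of all tested genes were called higher. There Krt8, Krt18 and Krt19 were called higher too, by 0.64, 0.61 and 0.56 (limma adjusted p = 0.000302, 8.13e-05 and 0.000327), close to that median. In all, 6 of the 9 keratins were called higher at that scaling, these 3 with Krt7, Krt13 and Krt5. Before scaling, the 54 keratin rows took 0.441 ± 0.0262% of recovered reads in vehicle and 0.662 ± 0.0656% in HDT (SD, n = 2).

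**Figure D2:**
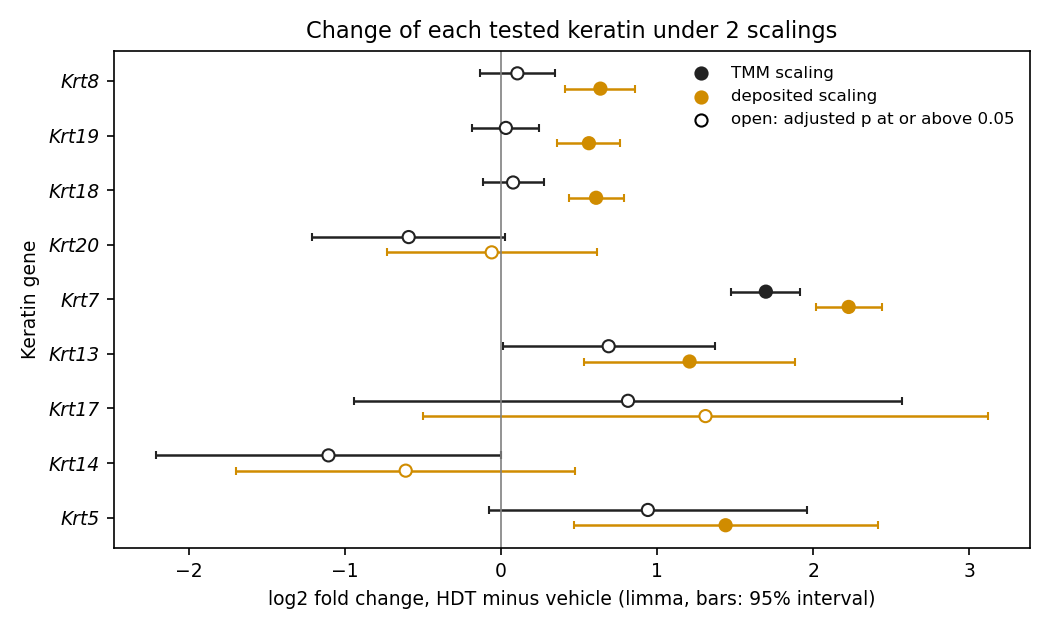
Log2 fold change of the 9 tested keratins, HDT minus vehicle, from limma with TMM scaling (black) and at the deposited scaling (orange), with 95% intervals and filled points for an adjusted p under 0.05. Krt7 is filled under both, at 1.70 and 2.23, while Krt8, Krt18 and Krt19 sit near 0 with TMM and near the median of all genes, 0.526, at the deposited scaling.

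Ratios of reads between keratins within a library do not depend on that scaling. The Krt8 to Krt18 read ratio was 3.55 and 3.35 in vehicle and 3.45 and 3.58 in HDT, with overlapping groups. The Krt19 to Krt18 ratio was 2.99 and 2.87 in vehicle and 2.84 in both HDT libraries, 0.968 times the vehicle mean, with groups that did not overlap. The Krt19 to Krt8 ratio likewise did not overlap, at 0.843 and 0.857 in vehicle and 0.824 and 0.792 in HDT, 0.95 times the vehicle mean. With 2 mice a group the exact permutation test cannot give a two-sided p below 0.333 for any ratio, so none was tested. Of all keratin reads, Krt8 took 44.2 ± 0.442% in vehicle and 45.6 ± 0.568% in HDT, Krt19 37.5 ± 0.0836% and 36.9 ± 0.56%, and Krt18 12.8 ± 0.394% and 13.0 ± 0.173% (SD, n = 2). The share of each of these 3 genes thus stayed close to its vehicle value.

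Against the summed reads of 20 genes of simple epithelium, a list with the cadherin Cdh1 and the adhesion molecule Epcam, Krt8 stood at 0.804 and 0.755 in vehicle and at 0.758 and 0.845 in HDT. The Krt18 ratio to the same sum was 0.226 and 0.225 in vehicle and 0.220 and 0.236 in HDT. The groups overlapped for both. The choice of reference gene mattered, since the Krt8 to Cdh1 ratio was 2.84 ± 0.243 in vehicle and 2.77 ± 0.254 in HDT, whereas the Krt8 to Epcam ratio was 20.3 ± 0.29 and 13.4 ± 1.26 (SD, n = 2). Epcam itself stood at 115 ± 3.47 CPM in vehicle and rose to 188 ± 7.33 in HDT (0.71 on the log2 scale, limma adjusted p = 0.000107).

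Krt7 lies at chr15:101411043-101430313 on the plus strand, at the lowest coordinates of the 5 members on that chromosome. It had 358 and 352 reads in vehicle and 1569 and 1812 reads in HDT. Both HDT libraries lay above both vehicle libraries, and the vehicle values differed by less than 1 CPM. The log2 fold change was 1.70 (SE 0.10, 95% interval 1.48 to 1.92, limma adjusted p = 1.25e-05), a 3.24-fold rise. Over 15 alternative settings, with other scalings, filters, tests and each library left out, it ranged from 1.60 to 2.23 and its highest adjusted p was 0.000456. The Krt7 to Krt8 read ratio was 0.00422 and 0.00452 in vehicle and 0.0134 and 0.0130 in HDT, 3.02 times higher, with no overlap. The Krt7 to Krt18 ratio rose 3.08 times and the ratio to the simple epithelium sum 3.11 times, by the group means. Krt7 nevertheless remained a minor keratin, with 0.193 ± 0.00732% of keratin reads in vehicle and 0.602 ± 0.00343% in HDT (SD, n = 2).

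Mesothelium, the outer lining of the stomach, is another source of Krt7, and its markers were measured beside it. Of 9 tested mesothelial genes 8 fell, with a median log2 fold change of −1.48, beside 19.3% of all tested genes called lower. The summed level of the mesothelial list was 48.0 to 56.1 CPM in vehicle and 21.6 to 22.6 CPM in HDT. The uroplakin gene Upk3b went from 4.91 ± 1.57 to 1.11 ± 0.195 CPM (limma adjusted p = 0.00052), the leucine-rich repeat gene Lrrn4 from 2.03 ± 0.578 to 0.502 ± 0.187 CPM (0.0024) and the membrane glycoprotein gene Gpm6a from 31.1 ± 1.10 to 12.8 ± 2.11 CPM (0.000123). The transcription factor Wt1 had 62 and 23 reads in vehicle and 4 and 15 in HDT. Wt1, counted among the 8 that fell, reached the filter's minimum reads in both libraries of a group only in vehicle, where it was higher. Its call was lost without vehicle replicate 1 (log2 fold change −1.972) and without HDT replicate 1 (−1.791). Mesothelin, Msln, was at 3.34 ± 0.131 and 3.58 ± 0.117 CPM (limma adjusted p = 0.629) and was called higher at the deposited scaling, by 0.63. The part of mesothelial RNA in the Krt7 values was not tested.

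**Figure D3:**
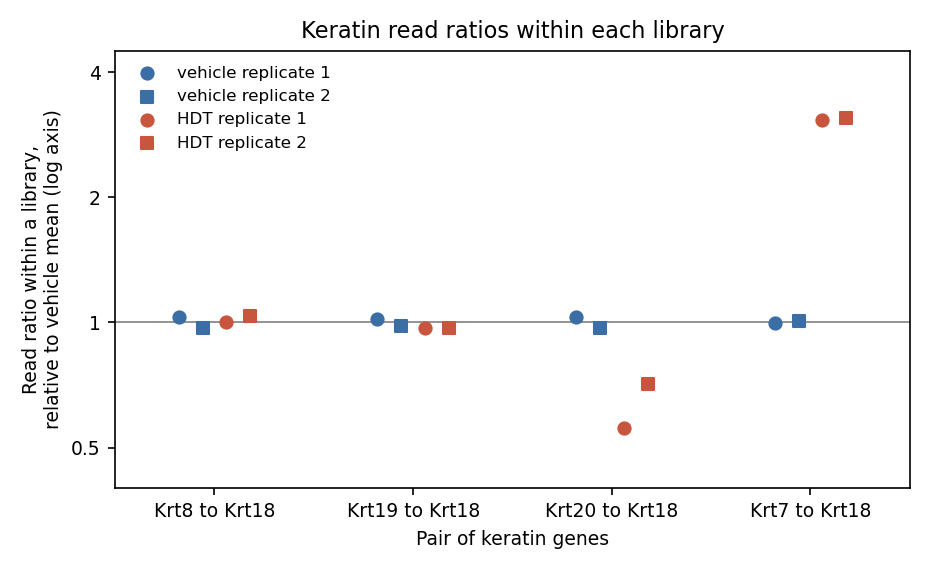
Ratio of reads between 2 keratins within each library, divided by the vehicle mean of that ratio, on a log axis with 1 point per mouse. Krt8 to Krt18 and Krt19 to Krt18 stay near 1, the Krt20 ratio is lower in both HDT libraries, and the Krt7 ratio is 3.08 times higher.

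Krt20 is the type I keratin of mature surface cells in stomach and intestine (chr11:99428403-99438150). Both HDT libraries lay below both vehicle libraries, and they differed from each other by more than the vehicle libraries did, at 97.2 ± 26.8 against 144 ± 6.76 CPM (SD, n = 2). The log2 fold change was −0.59 (SE 0.22, 95% interval −1.21 to 0.03, limma adjusted p = 0.117), so Krt20 had no call. edgeR on the recovered reads called it lower (−0.566, adjusted p = 0.0365), and so did limma without HDT replicate 1 (−0.303, 0.0162) or without HDT replicate 2 (−0.861, 0.00035). At the deposited scaling the value was −0.06. The Krt20 to Krt8 read ratio was 0.0617 and 0.0615 in vehicle and 0.0343 and 0.0421 in HDT, 0.62 times the vehicle mean.

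Genes of surface mucous cells, which express Krt20, were read beside it. Of 9 tested, 6 fell, with a median of −0.69, beside 19.3% of all tested genes called lower. The summed level of this list was 121060 to 124048 CPM in vehicle and 66377 to 81308 CPM in HDT. The mucin-like gene Dpcr1 had a log2 fold change of −0.92, the prostate stem cell antigen gene Psca −0.85 and the gastrokine Gkn1 −0.83. The Gkn1 call was lost on leaving out vehicle replicate 1 (adjusted p = 0.0711, limma) or vehicle replicate 2 (0.0608), and 3 genes of the list fell in each of these fits. At the deposited scaling 2 fell and 3 rose, with a median of −0.16, beside 5.46% and 62.8% of all tested genes. The Krt20 to surface mucous sum ratio was 0.00120 and 0.00115 in vehicle and 0.00118 and 0.00143 in HDT, with overlapping groups. Relative to the surface mucous genes, Krt20 therefore did not separate the groups. The part of these genes in the Krt20 result was not tested.

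Per kb of annotated exon, a scale on which genes can be compared, the order of the glandular keratins was the same in all 4 libraries, Krt8 above Krt19, Krt18, Krt20 and Krt7. The levels in vehicle were 1194 ± 53.0 CPM per kb for Krt8, 1071 ± 34.5 for Krt19, 471 ± 1.70 for Krt18, 74.7 ± 3.51 for Krt20 and 1.45 ± 0.00516 for Krt7. In HDT they were 1288 ± 171, 1096 ± 116, 498 ± 53.5, 50.5 ± 13.9 and 4.71 ± 0.541 (SD, n = 2). Krt8 and Krt19 did not overlap in vehicle, at 1156 to 1231 against 1046 to 1095, and overlapped in HDT, at 1167 to 1409 against 1014 to 1178. Krt7 has 7.05 kb of annotated exon, more than the 1.44 to 1.96 kb of the other 4, which lowers its value on this scale. It was also the lowest of the 5 by CPM. Summed per kb over 9 tested type I and 9 tested type II keratins, the type I to type II ratio was 1.39 and 1.43 in vehicle and 1.34 and 1.29 in HDT, with no overlap.

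The squamous keratins were close to the detection limit. Krt5 of basal cells (chr15:101707070-101712898) had 6 and 13 reads in vehicle and 28 and 24 in HDT. Its partner Krt14 (chr11:100203162-100207548) had 24 and 10 reads in vehicle and 10 in each HDT library. The partners therefore stood in opposite order between the groups, with log2 fold changes of 0.94 for Krt5 (SE 0.44, limma adjusted p = 0.133) and −1.11 for Krt14 (SE 0.48, 0.107), neither called. Without vehicle replicate 2, Krt5 was called higher at 1.472 (limma adjusted p = 0.0359) and Krt14 lower at −1.704 (0.0249), so these rest on the vehicle library kept. From pooled reads, scaled by effective library size, the HDT to vehicle ratio was 1.87 for Krt5 (exact 95% interval 1.09 to 3.35) and 0.402 for Krt14 (0.219 to 0.719). These intervals cover counting error only. Krt5 reached the minimum of 10 reads in both libraries of a group only in HDT, so it entered the test through the group where it was higher. Krt14 had 10 reads in all but vehicle replicate 1. The filter applies its minimum as CPM at the median depth. With 10 reads, vehicle replicate 2 (42104568 reads deep) met it and the deeper HDT libraries (42175023 and 42674985) did not. Krt14 therefore also entered the test through the group where it was higher, here vehicle.

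Krt13 of the upper squamous layers (chr11:100117327-100121566) had 30 and 20 reads in vehicle and 51 and 67 in HDT. It was the most abundant of the 5, at 0.716 ± 0.192 and 1.16 ± 0.237 CPM, with a log2 fold change of 0.69 (SE 0.29, limma adjusted p = 0.103). Its partner Krt4 (chr15:101918535-101924735) had 5 and 4 reads in vehicle and 8 and 10 in HDT, too few for the test, and a pooled ratio of 1.37 (exact 95% interval 0.583 to 3.45). Krt17 (chr11:100256217-100261029) had 21 and 5 reads in vehicle and 18 and 42 in HDT, and its groups overlapped. The log2 fold change was 0.81 (SE 0.72, limma adjusted p = 0.422). It was 1.763 without vehicle replicate 1 and −0.139 without vehicle replicate 2. Like Krt5, Krt17 reached the minimum of 10 reads in both libraries of a group only in HDT, where its mean was higher. With no library left out, limma with TMM in the main fit and edgeR called 0 of the 4 tested squamous keratins. Beside this stand 37.7% of all tested genes called by limma in either direction. Only 1 (Krt13) was higher at an unadjusted p under 0.05 (limma), beside 23.1% of all tested genes. At the deposited scaling 2, Krt13 and Krt5, were called higher, beside 62.8% of all tested genes.

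Other genes of squamous epithelium were read in the same way to see whether squamous tissue was in the libraries. Of 29 such genes, 13 had fewer than 10 reads in every library, and 5 of those 13 had 0 in all, among them Krtdap, Cnfn and Crct1. The squamous master transcription factor Trp63 had 1 and 0 reads in vehicle and 0 and 1 in HDT, and the basal desmosomal cadherin Dsg3 had at most 4 reads. Sprr1a, Ly6d, Sfn, Serpinb5 and Ly6g6c held 97.2% of the list's reads. The summed level was 177 to 204 CPM in vehicle and 225 to 299 CPM in HDT. Of 15 tested members, 2 rose, 1 fell and 12 had no call, with a median of 0.03. Of all tested genes 18.4% were called higher and 19.3% lower. The cornified envelope gene Sprr1a rose from 69.99 ± 7.83 to 118 ± 17.4 CPM (log2 fold change 0.75, limma adjusted p = 0.00442). Involucrin, Ivl, a precursor of the cornified envelope, had 1 read in each vehicle library and 39 and 44 in HDT. It entered the test only through the HDT group, where it was high (limma adjusted p = 0.00035). Its pooled ratio was 28.4 (exact 95% interval 7.61 to 238, counting error only). Suprabasin, Sbsn, fell from 1.29 ± 0.142 to 0.637 ± 0.20 CPM (limma adjusted p = 0.0266), a call lost without vehicle replicate 1 (0.087), without HDT replicate 2 (0.126), with DESeq2 (0.0918) and at the deposited scaling (0.163). Ly6d was at 51.8 ± 0.073 and 70.4 ± 22.3 CPM and Sfn at 35.7 ± 8.54 and 44.7 ± 8.47 CPM, neither called. Without HDT replicate 1 Ly6d was called higher, by 0.741. At an unadjusted p under 0.05 (limma) 2 members were higher, Sprr1a and Ivl, and 3 lower, beside 23.1% and 23.7% of all tested genes. Some less abundant members, chosen after their values were seen, had more reads in HDT without passing that threshold. The desmocollin gene Dsc3 had 6 and 12 reads in vehicle and 29 and 23 in HDT, and the transglutaminase gene Tgm1 had 10 and 5, then 24 and 17. Both reached the minimum of 10 reads in both libraries of a group only in HDT, where they were higher. Others had similar reads in all libraries, such as the corneodesmosin gene Cdsn with 21 to 36 and Anxa8 with 47 to 66. These reads are not scaled. The TMM factors were larger for HDT (1.22 and 1.18, against 0.848 and 0.818 for vehicle), so equal reads stand for a lower CPM in HDT. The part of squamous tissue in these values was not tested.

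Beyond the 10 members, 44 further keratin rows were in the table. Of these, 33 had fewer than 10 reads in every library, including 10 with 0 in all, and 10 were tested. Of the 10 tested, 2 fell and 0 rose with TMM, beside 19.3% and 18.4% of all tested genes, and edgeR called 2 higher. At the deposited scaling 5 were called higher, beside 62.8% of all tested genes. The most abundant was Krt23, a type I keratin, with 112 ± 2.12 CPM for vehicle and 88.2 ± 2.48 CPM for HDT (log2 fold change −0.34, limma adjusted p = 0.00305). At the deposited scaling it was called higher, by 0.19. The type II keratin Krt80 went from 6.97 ± 0.21 to 5.24 ± 0.43 CPM (−0.41, limma adjusted p = 0.0321), which turned to 0.118 at the deposited scaling. Its call was also lost without vehicle replicate 1 (0.0742), without vehicle replicate 2 (0.119), without HDT replicate 2 (0.143) and with DESeq2 (0.0985). Krt79, a type II keratin of hair follicle ducts, was at 9.12 ± 2.05 and 15.8 ± 4.75 CPM (log2 fold change 0.78, limma adjusted p = 0.0867) and was called higher by edgeR (0.0346), by DESeq2 (0.00233) and without HDT replicate 1 (0.0152). Krt6a, a wound keratin of squamous epithelium chosen after its values were seen, had 2 and 3 reads in vehicle and 11 and 15 in HDT (limma adjusted p = 0.0509, and 0.0468 with edgeR). Like Krt5, it entered the test only through HDT, where it was higher.

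Likeness of pattern was measured as the root mean square difference of log2(CPM + 0.5), centred on the mean of the 4 libraries, among the 19 tested keratins. Krt18 lay closest to Krt19, at 0.03, and Krt20 to Krt23, at 0.22. Krt7 lay closest to Krt79, at 0.50, and Krt7 was itself the farthest keratin from each of the other 8 tested members. Krt8 and Krt19 lay closest to Krt15, which had 13 to 26 reads, and the offset draws such sparse genes towards a flat pattern. With 4 libraries this is a description only.

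Genes that anchor keratin filaments were given by 2 lists. The counts of these and the following lists stand beside 18.4% of all tested genes higher and 19.3% lower with TMM, and 62.8% higher and 5.46% lower at the deposited scaling. Of 11 tested desmosome genes, 2 rose, 1 fell and 8 had no call, with a median of 0.07. The plakophilin genes Pkp2, Pkp3 and Pkp4 carried these calls. Pkp2 went from 42.2 ± 0.828 to 50.5 ± 1.26 CPM (limma adjusted p = 0.0134), Pkp3 from 43.0 ± 2.66 to 50.5 ± 2.46 CPM (0.039) and Pkp4 from 136 ± 4.95 to 118 ± 3.95 CPM (0.0347). All 3 calls were lost without vehicle replicate 2 (limma adjusted p = 0.0868, 0.252 and 0.247), and Pkp3 and Pkp4 also lost theirs without HDT replicate 2 (0.13 and 0.108) and Pkp4 without vehicle replicate 1 (0.0945). With DESeq2 the calls of Pkp3 (0.0814) and Pkp4 (0.0574) were lost too, as was that of Pkp4 with upper-quartile scaling (0.058). Without HDT replicate 1, 4 desmosome genes rose. At the deposited scaling 9 rose and 0 fell, Pkp4 among the former at 0.327. Of 12 tested genes of plakins and of hemidesmosomes, the latter tying keratin to the basement membrane, 5 fell and 2 rose, with a median of −0.14. Dst, a plakin gene, fell by 0.92 on the log2 scale (83.2 ± 3.36 to 43.95 ± 1.29 CPM, limma adjusted p = 3.39e-05). The laminin gene Lama3 fell by 0.81 (limma adjusted p = 0.00626). Periplakin, Ppl, rose by 0.52 on the log2 scale (0.0111), a call lost on leaving out vehicle replicate 1 (0.0527) or HDT replicate 1 (0.0542). Over the libraries left out in turn the list had 2 to 6 members lower and 0 to 2 higher, and at the deposited scaling 8 were higher and 1 lower.

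Among 15 tested genes of other intermediate filaments, 4 rose, 3 fell and 8 had no call, with a median of 0.04. Lmnb1, the nuclear lamin B1 gene, rose from 17.9 ± 2.35 to 49.8 ± 1.46 CPM (log2 fold change 1.48, limma adjusted p = 2.3e-05). The glial filament gene Gfap was higher by 0.76 (log2) and the neurofilament gene Nefm fell by 0.94, the former without a call when HDT replicate 2 was left out (limma adjusted p = 0.0672) and the latter without one at the deposited scaling (0.108). Without vehicle replicate 1 or without HDT replicate 1, only 1 gene of this list fell. Of 20 tested simple epithelium genes, 5 rose, 4 fell and 11 had no call, with a median of 0.12, and the summed level was 2998 to 2999 CPM in vehicle and 3015 to 3266 CPM in HDT. Ehf, an epithelial transcription factor, rose by 0.63 (log2), whereas Marveld3, a tight junction gene, fell by 1.25. Leaving out either vehicle library left 2 lower members, and at the deposited scaling 18 rose and 1 fell.

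**Figure D4:**
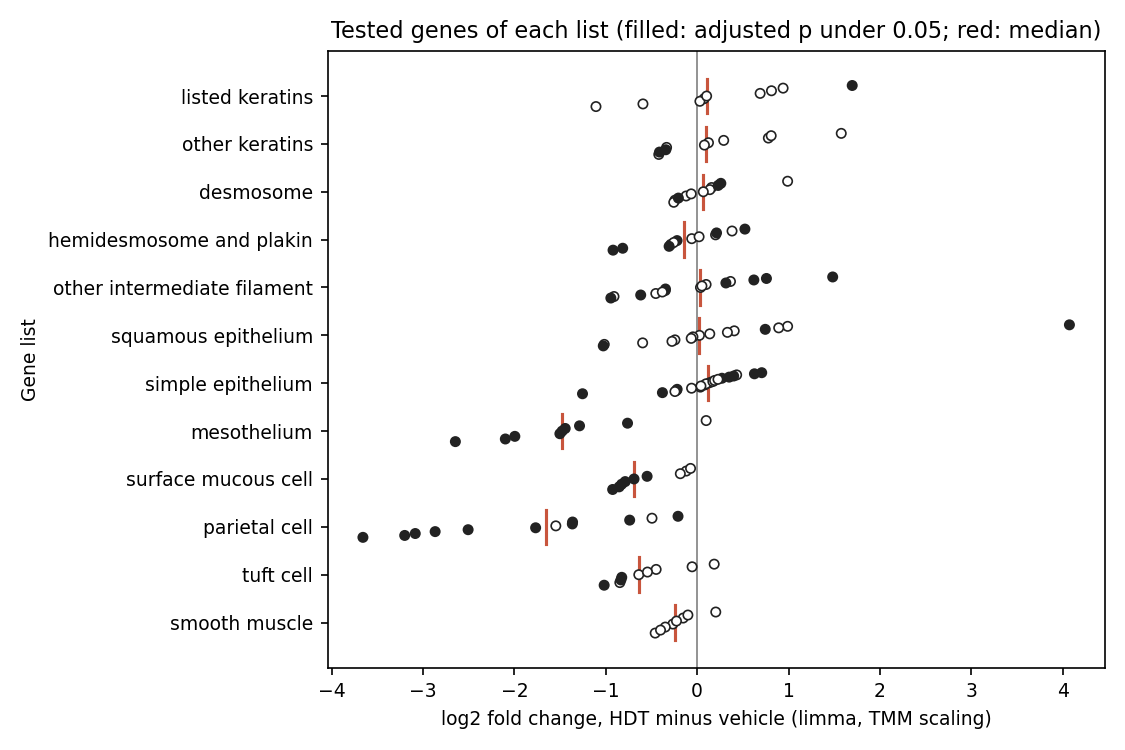
Log2 fold change of every tested gene of the listed keratins, the other keratins and the 10 gene lists (limma, TMM scaling), with filled points for an adjusted p under 0.05 and a red bar at each list's median. The listed keratins centre on 0.10 with Krt7 alone filled, and the simple epithelium genes centre on 0.12. The mesothelium, surface mucous, parietal, tuft cell, smooth muscle, and hemidesmosome and plakin lists centre below 0.

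Other cell types of the corpus wall were read beside the keratins. Of 12 tested parietal cell genes 10 fell, and of 9 tuft cell genes 3 fell. Of 8 smooth muscle genes limma called 0, with 1 lower at an unadjusted p under 0.05 (Lmod1, named after its value was seen), and edgeR and DESeq2 each called 1 lower. Their summed levels were 13526 to 14733 and 2459 to 2811 CPM for parietal cells, 229 to 263 and 224 to 282 CPM for tuft cells, and 2151 to 3039 and 1824 to 2672 CPM for smooth muscle, vehicle before HDT. The parietal genes included the proton pump subunit Atp4b, at 4849 ± 177 and 529 ± 48.9 CPM, which marks the tissue as corpus. Leaving out vehicle replicate 1 or HDT replicate 1 left 1 tuft cell gene lower, and leaving out vehicle replicate 2 or HDT replicate 2 gave 6 and 5. The parietal sums did not overlap between the groups, while the tuft cell and smooth muscle sums did. Median log2 fold changes with TMM were −1.66 for parietal, −0.64 for tuft cell and −0.25 for smooth muscle genes. At the deposited scaling they were −1.12, −0.11 and 0.29. The part of these cell types in the keratin values was not tested.

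Counting can blur copies of a gene. Of the 100-base stretches of the longest coding Krt8 transcript, 16.9% occur exactly in the processed pseudogene Krt8-ps on chromosome 7. Krt8-ps had 243 and 219 reads in vehicle and 377 and 405 in HDT, against 77970 or more for Krt8 in every library, and part of those may come from either gene. Krt5 shared 2.38% of its stretches, with Krt6a and Gm5478, and Krt14 shared 2.88%, with Krt16. The other 7 members shared none. Recovered depth was 41536686 to 42674985 reads per library, and replicates differed by more than sampling noise (chi-square per degree of freedom 15.5 for vehicle and 30.4 for HDT).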

How the data were processed

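RNA from the stomach corpus of 4 mice, 2 vehicle and 2 HDT, was sequenced by a commercial centre from column-purified total RNA, per the labels' protocols. Per the submitters' processing notes the tools were STAR 2.7.1a, featureCounts, Subread 2.0.0 and edgeR, with the builds GRCm38 and mm10. The sources used here do not state the annotation, strand setting, read length or scaling method. The deposited values are a signal, gene counts that the authors multiplied by 1 factor per library. Dividing by that factor (1.1128 to 1.1381) gave whole reads for 100% of values above 0, within 0.01 plus the precision of the factor.

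Genes were kept by filterByExpr (18285 of 52125 rows). Values were scaled by TMM (factors 0.848, 0.818, 1.22 and 1.18 for vehicle 1, vehicle 2, HDT 1 and HDT 2), transformed as log2(value + 1), where 1 is 0.89 reads, and compared by limma 3.58.1 with trend and robust moderation and group as the only term. Tests were two-sided with Benjamini-Hochberg adjustment over all tested genes at 0.05, and fold changes of genes with few reads are understated on this scale. Same-numbered libraries are different mice, so no pairing was assumed. edgeR 4.0.16 and DESeq2 1.42.0 on the recovered reads were alternatives. On simulated data (18285 genes) the procedure recovered 99% of 100 genes changed 4-fold. It recovered 70% of 100 changed by a factor of 2, with 10 false calls. No other genes were changed there, and the changes were balanced up and down. In the real libraries 6889 genes were called and TMM factors differed between the groups, so these figures need not carry over. limma p-values rest on the spread between 2 mice a group and on a trend of spread over all tested genes. Each gene's variance was drawn towards that trend (median prior degrees of freedom 5.87). With a library left out, the lone library of its group is assumed to vary like the other group. The members and gene lists were chosen with earlier results of these data known. The text names all members, other keratins called or among the 3 most abundant, and up to 3 called genes per list (for squamous and mesothelial genes also the 3 with most reads); others were named after their values were seen. Positions come from GENCODE M21 on GRCm38.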

Additional observations from a re-analysis of the deposited data

How the results depend on the processing

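The rise of Krt7 kept its direction and call in all 15 alternatives. The count of keratins called higher, 1, was 6 at the deposited scaling and 1 to 3 with a library left out, and that of keratins called lower, 0, was 1 with edgeR on recovered reads (Krt20) and 0 to 1 with a library left out. Among the members, signs turned only when a library was left out, where Krt8 ranged from −0.016 to 0.246, Krt18 from −0.017 to 0.192, Krt19 from −0.061 to 0.144 and Krt17 from −0.139 to 1.763 (log2). At the deposited scaling Krt23 (0.19), Krt80 (0.118) and Pkp4 (0.327) turned. Over all lists and other keratins, 15 members were higher and 43 lower, which became 59 and 19 at the deposited scaling, and 25 to 48 were lower with a library left out. With the replicate number as a replicate block Krt7 was at 1.697 and 4982 genes were called, against 6889 without it, and Krt80, Pkp2, Pkp3, Pkp4, Wt1 and Gnat3 lost their calls. Same-numbered libraries deviated from their group means with a correlation of −0.142 across genes. A crossed pairing, chosen after seeing the data, called 8525 genes, 2 keratins higher and 1 lower, and 23 list members higher and 60 lower. A filter of 1 CPM in 2 libraries left no value for Krt5, Krt14, Krt17, Krt6a, Ivl, Sbsn and Wt1, and DESeq2 gave no adjusted p for Krt14 and Krt6a. Depth limits the squamous keratins, with 4 to 67 reads per library. The causes of these shifts were not tested.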
